A study of Mus musculus with 25 samples.

Results

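Cybrd1, Abcc3, Madcam1, Igf1, Plet1 and Bst1 are 6 genes of 19938 measured that separated TIM-4+ from TIM-4- LysoMac, the macrophages of the mouse Peyer's patch that make lysozyme. They were chosen from the difference between both LysoMac groups, with Cybrd1, Abcc3, Madcam1 and Igf1 higher in TIM-4+ cells and Plet1 and Bst1 lower. That difference is therefore given as a description with no test, and tests are given only for comparisons that did not choose the genes. Comparisons of LysoMac with dendritic cells still use the same LysoMac arrays. Each of the 6 was found by its platform gene symbol on a row with 1 symbol, and each has 1 transcript cluster, the set of probes that reads a gene. The clusters are 10472757 (Cybrd1), 10389894 (Abcc3), 10364444 (Madcam1), 10365559 (Igf1), 10585186 (Plet1) and 10521667 (Bst1).

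The study measured RNA on 25 Affymetrix Mouse Gene ST arrays of phagocytes sorted from Peyer's patches, lymphoid follicles of the small intestine that sample gut antigen. All mice were wild-type female C57BL/6 aged 6 to 8 weeks, and each replicate pooled cells of 42 mice. Cells were freed with collagenase and DNase, enriched for CD11c on magnetic beads and sorted by flow cytometry, and 2 to 20 ng of RNA went into each array. The mice were untreated or had received R848, a synthetic ligand of the RNA sensor TLR7, by mouth 9 h earlier. Untreated conventional dendritic cells (cDC) were CD11c-high, MHC class II positive and BST2 negative. They comprised CD11b+ SIRPα+ cells (5 arrays), DN cells that had SIRPα but none of CD11b, CD8α and CD4 (3 arrays), and CD8α+ SIRPα- cells (3 arrays). Untreated LysoMac carried high CD11c, little MHC class II, and SIRPα, BST2 and CD4, and were split into TIM-4- (3 arrays) and TIM-4+ (3 arrays) cells. The labels place TIM-4- LysoMac in the subepithelial dome and TIM-4+ LysoMac in the interfollicular region and the T cell zone. After R848 there were CD11b+ cDC (3 arrays) and CD8α+ cDC (5 arrays) but no LysoMac or DN cDC, so the R848 response of the 6 genes is known here in cDC alone. The R848 titles also carry the words steady state, and the treatment was taken from the other labels.

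TIM-4, encoded by Timd4, is a receptor for phosphatidylserine with which macrophages bind dying cells, and its presence often marks long-lived resident macrophages. Cybrd1 encodes duodenal cytochrome b, a membrane reductase that turns ferric into ferrous iron for uptake. Abcc3 encodes a multidrug resistance protein of the ABC family, which exports conjugated organic anions such as glucuronides and bile salts. Madcam1 encodes the addressin of mucosal venules that binds the integrin α4β7 on lymphocytes homing to the gut. Igf1 encodes insulin-like growth factor 1, a secreted ligand of the receptor Igf1r that tissue macrophages can supply to their neighbours. Plet1 encodes a GPI-anchored surface protein known from placenta and epithelial progenitors and also found on intestinal dendritic cells. Bst1 encodes CD157, a GPI-anchored ectoenzyme related to CD38 that cleaves NAD and is found on myeloid and stromal cells.

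The columns of the deposited table fell into 3 sets with different row orders: 14 arrays of untreated CD11b+, DN and LysoMac cells, 3 arrays of untreated CD8α+ cDC, and the 8 R848 arrays. The gene names fitted the R848 arrays alone, and the rows of both untreated sets were aligned to them. The 6 genes had accepted rows in all sets, except that Madcam1 had none in untreated CD8α+ cDC and no value is given for it there. Plet1 and Bst1 lay 4 to 5 rows from the nearest gap of the alignment, near the minimum of 3, and Cybrd1, Abcc3 and Igf1 lay 21 to 35 rows from one. Every comparison of an R848 group with an untreated group, and of untreated CD8α+ cDC with others, crosses array sets, so array set and treatment or subset cannot be told apart there. In those that involve untreated CD8α+ cDC the median of all genes was itself shifted, by values from -0.19 to 0.21 on the log2 scale. Untreated CD11b+ replicates 4 and 5 stood apart from replicates 1 to 3: their deviations from the group mean correlated at 0.54 with each other and at -0.63 to -0.49 with the other 3 arrays.

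Timd4 followed the labels of the sort. It was at 10.80, 10.76 and 10.80 in the TIM-4+ arrays and at 5.15, 5.29 and 6.56 in the TIM-4- arrays, on the log2 scale of the deposited signals. TIM-4- replicate 3 had the highest Timd4 of its group. The 9 macrophage markers with a value, among them Mertk and Msr1, averaged 9.58 to 9.73 over both LysoMac groups and 6.60 to 7.19 over CD11b+ and DN cDC. Of these, 7 were called higher and 1 lower in LysoMac, and of 16 cDC markers 13 were called lower and 2 higher. Over all genes 14.6% were called higher and 16.7% lower. The lower macrophage marker was Fcgr1, with group means of 4.30 in both LysoMac groups, 4.16 in CD11b+ and 5.06 in DN cDC. Among the higher cDC markers was Irf8, at 9.45 in TIM-4- and 9.66 in TIM-4+ LysoMac, 7.69 in CD11b+ and 6.88 in DN cDC. Timd4 was not confined to LysoMac RNA, since untreated CD11b+ cDC had 7.08 to 8.59, above all 3 TIM-4- LysoMac arrays.

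The other sort markers followed the labels in part. Itgam, which encodes CD11b, was at 6.85 to 7.49 in untreated CD11b+ cDC, 4.95 to 6.09 in DN cDC and 3.72 to 3.99 in untreated CD8α+ cDC. In the arrays labelled CD11b+ cDC after R848 it was at 3.80, 4.40 and 4.38, lower than in untreated CD11b+ cDC by -2.88 ± 0.19 (limma adjusted p = 1.75e-10). It overlapped the 4.05 to 4.40 of CD8α+ cDC after R848, so Itgam RNA went against the label of these 3 arrays, and CD11b+ names them below by their label alone. Cd8a, at 6.51 to 7.26 in them and 10.36 to 10.83 in CD8α+ cDC after R848, and Sirpa, at 9.50 to 9.87 against 5.47 to 7.07, did separate both R848 groups. Itgax, which encodes CD11c, fell after R848 by 1.21 ± 0.14 in CD11b+ cDC (limma adjusted p = 5.85e-07) and by 2.82 ± 0.14 in CD8α+ cDC (limma adjusted p = 4.25e-13). The part of these shifts in the R848 responses given below was not tested. Between TIM-4+ and TIM-4- LysoMac, Itgam was lower by -1.39 ± 0.21 (limma adjusted p = 0.00147). Cd4 (0.71 ± 0.18), Itgax (-0.35 ± 0.16), Bst2 (0.10 ± 0.19) and Sirpa (0.02 ± 0.28) were not called there.

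The 250 bases before the transcription start are shown for the members that RefSeq's promoter table (GRCm38.p6) holds, since 3 of them rose together in TIM-4+ cells and the fourth, Plet1, went the other way. All 4 genes lie on the plus strand, the sequences run 5′ to 3′ towards the start, and capitals mark the motif matches named after them. Abcc3 and Bst1 had no matching entry.
Cybrd1, chr2:71117804-71118053: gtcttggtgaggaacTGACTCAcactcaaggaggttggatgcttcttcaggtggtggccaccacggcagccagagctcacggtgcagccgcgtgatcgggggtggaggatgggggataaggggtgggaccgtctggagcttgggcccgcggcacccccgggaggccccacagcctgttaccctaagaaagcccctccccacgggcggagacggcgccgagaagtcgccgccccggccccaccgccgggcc
Madcam1, chr10:79664309-79664558: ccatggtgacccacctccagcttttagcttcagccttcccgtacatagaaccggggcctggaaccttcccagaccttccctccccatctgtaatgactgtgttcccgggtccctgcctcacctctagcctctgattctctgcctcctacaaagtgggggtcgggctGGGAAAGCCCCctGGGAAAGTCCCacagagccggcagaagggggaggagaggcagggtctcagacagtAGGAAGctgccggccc
Igf1, chr10:87860861-87861110: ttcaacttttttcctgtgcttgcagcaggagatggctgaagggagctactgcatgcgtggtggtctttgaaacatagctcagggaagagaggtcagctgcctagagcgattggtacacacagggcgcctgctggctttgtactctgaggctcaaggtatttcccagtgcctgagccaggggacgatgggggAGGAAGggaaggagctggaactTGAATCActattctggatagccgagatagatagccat
Plet1, chr9:50494275-50494524: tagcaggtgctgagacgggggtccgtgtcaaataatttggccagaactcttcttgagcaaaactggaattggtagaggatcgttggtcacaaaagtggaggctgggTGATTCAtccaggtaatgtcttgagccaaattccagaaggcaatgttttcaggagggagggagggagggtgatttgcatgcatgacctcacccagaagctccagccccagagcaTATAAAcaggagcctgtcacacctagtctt

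These promoters were searched on both strands for 5 motifs. The first was a form of the site of the factor NF-kappaB, with GGGAAA and a run of 3 C set 2 bases of any kind apart. The second was AGGAAG, a core bound by ETS factors such as PU.1. An interferon response form was read as a repeated GAAA set 2 bases of any kind apart. The others were TGANTCA, an AP-1 form, and the TATA box TATAAA. The Madcam1 promoter held the first form at 2 places, GGGAAAGCCCC from base 84 to 74 before the start and GGGAAAGTCCC from base 71 to 61. That form occurred in 176 of 32851 promoters in the table (0.536%). Madcam1 also held AGGAAG from base 16 to 11 and Igf1 from base 59 to 54, a motif found in 29.5% of all promoters. TGANTCA was present as TGACTCA in Cybrd1 (base 235 to 229), as TGAATCA in Igf1 (37 to 31) and as TGATTCA in Plet1 (144 to 138), against 6.75% of all promoters. Plet1 alone of the 4 held TATAAA, from base 30 to 25 (12.4% of all promoters), and none held the interferon response form (2.98%). No motif listed here was shared by the 3 promoters of genes higher in TIM-4+ cells. A match describes letters in this window, and binding was not measured.

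Cybrd1 had the largest difference of the 4 genes that were higher in TIM-4+ LysoMac. It was at 6.45, 6.32 and 6.16 in the TIM-4+ arrays and at 4.74, 4.51 and 4.11 in the TIM-4- arrays, on the log2 scale. The difference of 1.86 ± 0.15 (SE, n = 3 and 3) put it second only to Timd4 among 15962 genes ranked by this difference. Untreated CD11b+ cDC had 4.32, 4.24, 4.11, 3.89 and 3.94, and DN cDC had 4.15, 4.50 and 4.25, so the TIM-4- arrays overlapped these cDC and the TIM-4+ arrays stood above all of them.

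Abcc3, the efflux transporter, was at 7.31, 7.14 and 7.73 in TIM-4+ LysoMac and at 5.55, 6.16 and 6.38 in TIM-4- LysoMac. The difference was 1.36 ± 0.17 (SE, n = 3 and 3), the sixth largest. In contrast to Cybrd1, Abcc3 in TIM-4- LysoMac also lay above every untreated cDC array, whose levels ran from 4.05 to 4.70.

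Madcam1, the vascular addressin, was at 6.05, 5.45 and 5.90 in TIM-4+ LysoMac and at 4.42, 4.69 and 4.72 in TIM-4- LysoMac, a difference of 1.19 ± 0.16 (SE, n = 3 and 3) and rank 9. The TIM-4- arrays overlapped those of DN cDC (4.43, 4.58 and 4.43) and lay above those of untreated CD11b+ cDC (3.58 to 4.10).

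Igf1, the growth factor, was high in all LysoMac and higher still in TIM-4+ cells. The TIM-4+ arrays had 8.74, 9.00 and 9.08, the TIM-4- arrays had 7.80, 7.70 and 7.94, and the difference was 1.13 ± 0.13 (SE, n = 3 and 3), rank 12. The untreated cDC arrays ran from 3.87 to 4.44, so the step from cDC to TIM-4- LysoMac was larger than the step between both LysoMac groups.

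Plet1 and Bst1 had the largest differences towards TIM-4- LysoMac. Plet1 was at 5.50, 5.39 and 5.75 in TIM-4+ cells and at 8.90, 8.34 and 8.80 in TIM-4- cells, a difference of -3.13 ± 0.33 (SE, n = 3 and 3). Bst1 was at 5.72, 5.57 and 5.61 in TIM-4+ cells and at 7.89, 7.62 and 8.13 in TIM-4- cells, a difference of -2.25 ± 0.26 (SE, n = 3 and 3). They differed in where else they were high. Plet1 was highest in cDC, with 11.76 to 12.00 in untreated CD11b+ and 11.03 to 11.53 in DN cDC. Bst1 was highest in TIM-4- LysoMac itself, above the 5.50 to 6.82 of CD11b+ cDC and the 5.57 to 6.47 of DN cDC. TIM-4+ LysoMac overlapped DN cDC in Bst1.

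**Figure D1:**
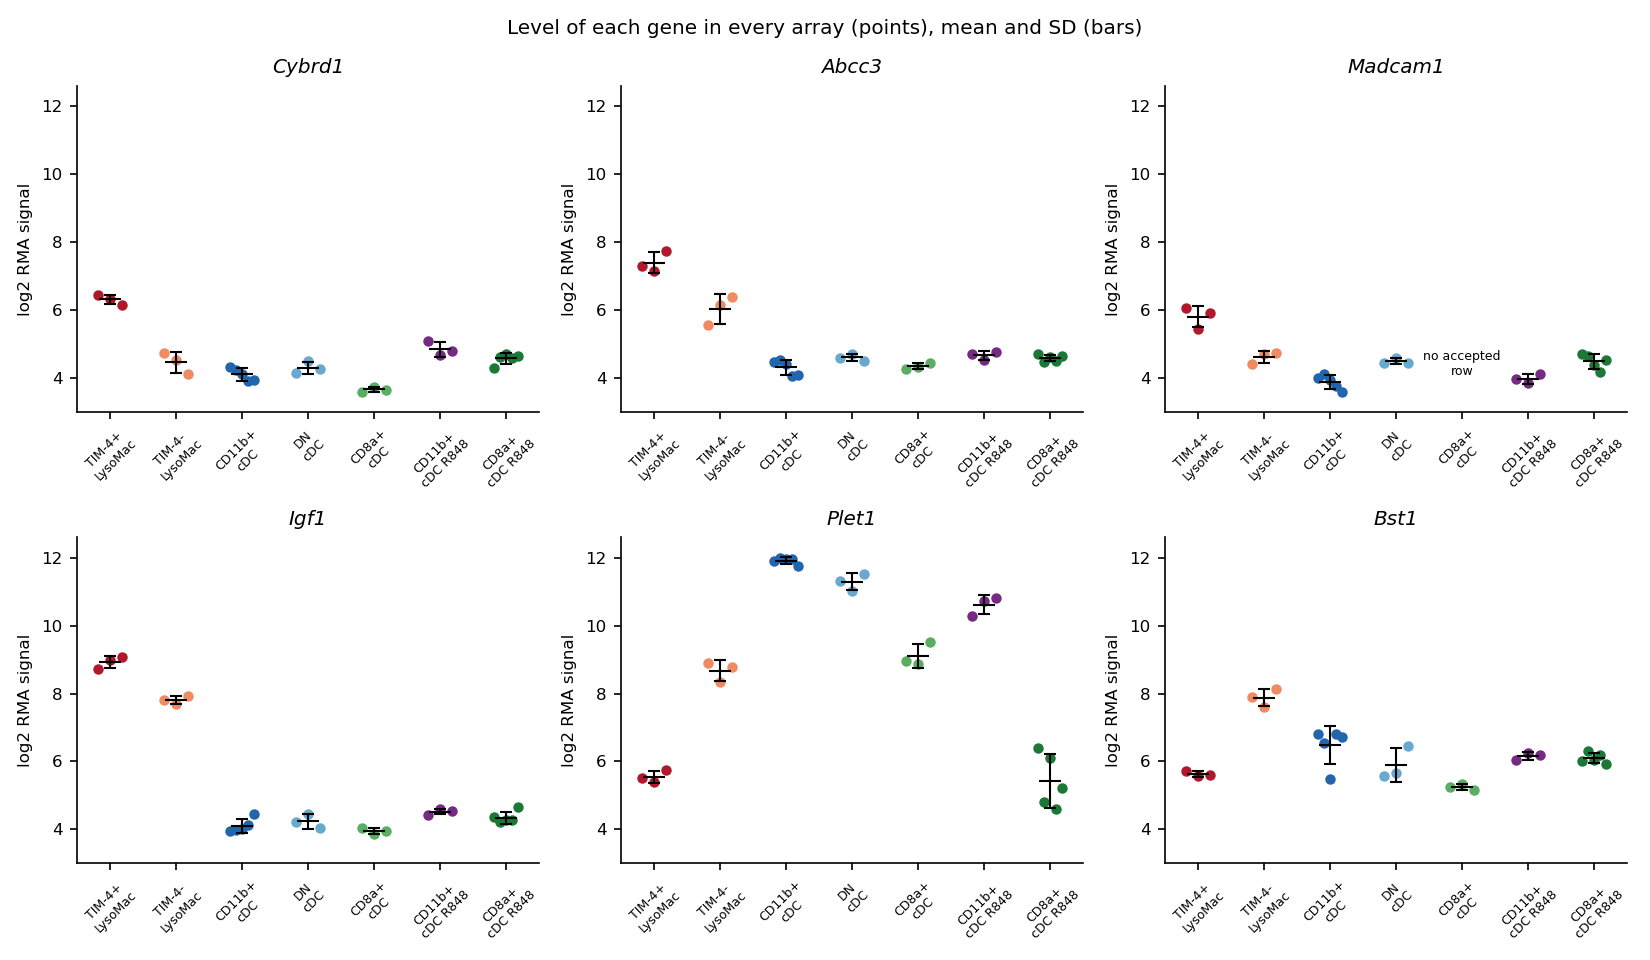
Level of the 6 genes in every array, as log2 RMA signal on the y axis, with the 7 groups on the x axis; points are arrays and bars the mean and SD. TIM-4+ LysoMac stood alone in Cybrd1 and Madcam1, both LysoMac groups stood above all cDC in Abcc3 and Igf1, and Plet1 ran from about 12 in untreated CD11b+ cDC to between 4.60 and 6.39 in CD8α+ cDC after R848.

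Across all genes, the same contrast called 79 of 15962 (0.495%) with limma at a Benjamini-Hochberg adjusted p under 0.05, with 33 higher (0.207%) and 46 lower (0.288%). The 6 genes were chosen from it and their place among these calls shows nothing further. The arrays of both groups did not overlap for 10.8% of all genes. Besides the 4 members, the called genes with the largest differences towards TIM-4+ LysoMac were Timd4 (5.12 ± 0.32), the chemokine Ccl19 (1.45 ± 0.19), the phosphatase Ptprm (1.13 ± 0.24), the integrin chain Itga6 (1.06 ± 0.16), the hydrolase Ephx1 (1.02 ± 0.20) and the co-receptor Nrp1 (1.00 ± 0.19). Among called genes, Plet1 and Bst1 were followed on the lower side by H2-Aa (-2.24 ± 0.22), the decoy receptor Il1r2 (-1.99 ± 0.30), H2-Eb1 (-1.97 ± 0.15), the invariant chain Cd74 (-1.95 ± 0.23), H2-Ab1 (-1.94 ± 0.19), Cd8b1 (-1.77 ± 0.28), the cytokine Il1b (-1.72 ± 0.28) and Alox5ap (-1.65 ± 0.28). Errors are SE, and limma's adjusted p for these 14 ran from 4.73e-09 to 0.0304. With the 6 LysoMac arrays fitted alone 28 genes were called, and H2-Aa (limma adjusted p = 0.0876), H2-Ab1 (0.0816), Cd74 (0.185) and Il1b (0.0614) were not among them. Without TIM-4- replicate 1 the count was 49 and without TIM-4- replicate 3 it was 47.

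**Figure D2:**
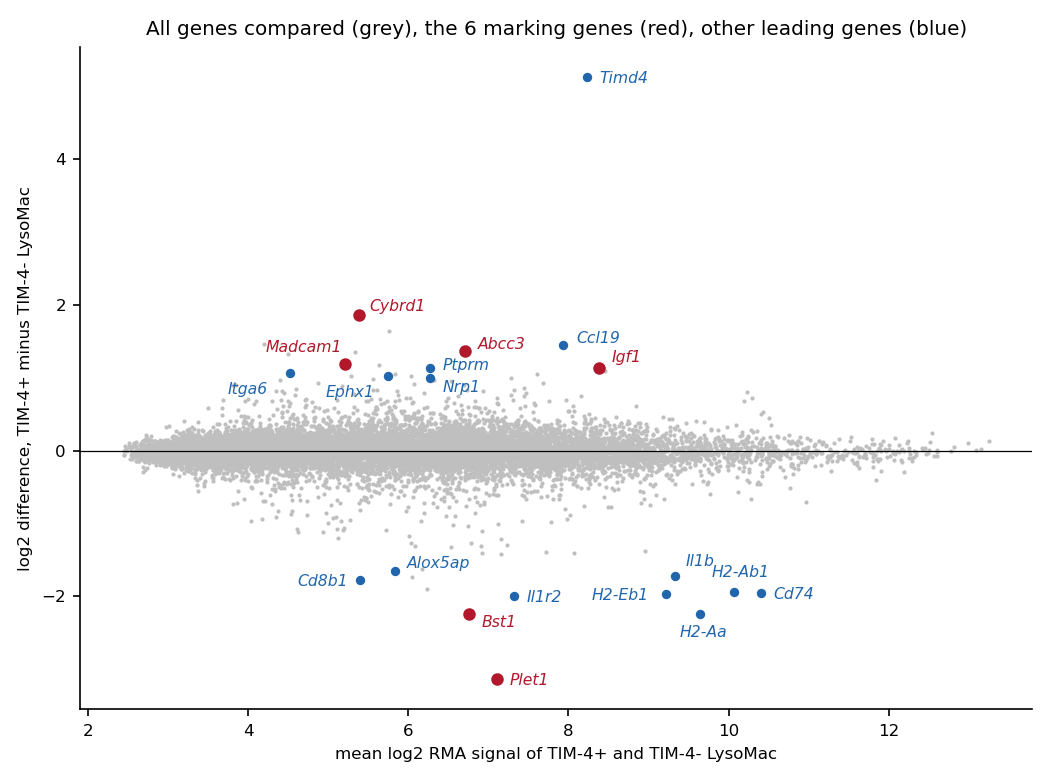
Difference between TIM-4+ and TIM-4- LysoMac (y axis, log2) against the mean log2 RMA signal of both groups (x axis) for 15962 genes, with the 6 members in red and the other leading called genes in blue. Plet1 at -3.13 and Bst1 at -2.25 lay lowest, and Cybrd1 at 1.86 lay highest after Timd4 at 5.12.

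Lists of genes from the pathways of the 6 members had medians between -0.11 and 0.03 in TIM-4+ against TIM-4- LysoMac, with -0.00 over all genes. Among 15 other genes of iron reduction and transport, 0 were called higher and 1 lower, Tfrc, the transferrin receptor (-1.30 ± 0.27, limma adjusted p = 0.0217). That call was lost when any 1 of the 6 arrays was left out (limma adjusted p = 0.0549 to 0.105). Of 14 other ABC transporters 0 were called in either direction (median 0.03), and Abcg1 had 0.62 ± 0.26 and Abcb1a -0.67 ± 0.18. Of 7 genes for the receptor of Madcam1 and related adhesion molecules 0 were called (median -0.11). They include Itgb7, a chain of the Madcam1 receptor (-0.17 ± 0.16), and Vcam1, another vascular ligand (0.52 ± 0.15). Of 14 genes of the IGF and insulin pathway 1 was called higher, Igf2r, the receptor that clears IGF2 (0.68 ± 0.14, limma adjusted p = 0.0296). It lost its call when the 6 arrays were fitted alone (limma adjusted p = 0.192) and without TIM-4- replicate 1 or 3 or TIM-4+ replicate 1 or 2 (0.105 to 0.189). The largest difference of the list, that of the secreted binding protein Igfbp7, was not called (1.64 ± 0.51, limma adjusted p = 0.303). Igfbp7 had group means of 6.58 in TIM-4+ and 4.93 in TIM-4- LysoMac and of 10.08 in DN cDC. The receptor Igf1r had 0.10 ± 0.11. Of 13 genes of NAD metabolism 0 were called (median -0.06), and Nampt had -0.03 ± 0.17. With the 0.495% called over all genes, 0 or 1 call in lists of this size is near the background.

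Marker lists of other cells were read beside the 6 genes, because Madcam1 is best known from endothelium and Bst1 from myeloid and stromal cells. Of 9 endothelial markers 0 were called, with a median of 0.21 and a mean level over the list of 4.37 to 4.39 in TIM-4- and 4.48 to 4.96 in TIM-4+ arrays. Cdh5 had 0.71 ± 0.28, Emcn 0.71 ± 0.27, Egfl7 0.58 ± 0.20 and Pecam1 0.12 ± 0.21. Of 11 stromal and follicular reticular markers 0 were called (median 0.05), with a mean level of 4.33 to 4.62 in TIM-4- and 4.51 to 4.80 in TIM-4+ arrays, and Sparc had 1.36 ± 0.52 and Cxcl13 0.97 ± 0.49. The part of such cells in the Madcam1 difference was not tested. On the TIM-4- side, 0 of 8 T and NK cell markers were called (median -0.49, mean level 4.73 to 5.54 in TIM-4- and 4.45 to 4.77 in TIM-4+ arrays). All 8 differences were negative, from -1.27 to -0.02. Gzma had group means of 6.67 in TIM-4- and 5.40 in TIM-4+ LysoMac, and Cd3g 5.53 and 4.60. Cd8b1, called lower at -1.77 ± 0.28, was not on this list. The part of such cells in the Plet1 and Bst1 differences was not tested. Of 7 neutrophil markers 0 were called (4.64 to 5.15 against 4.52 to 4.69), with S100a8 at -1.90 ± 0.58. Monocyte markers had 2 of 11 called lower, Il1r2 and Il1b, against 0.288% of all genes, and the median of the list was -0.08. Both genes had their highest group mean in untreated CD11b+ cDC (10.59 for Il1r2 and 11.31 for Il1b), so they do not mark monocytes alone here. Resident macrophage markers (15), macrophage markers (9), cDC markers (16), epithelial and M cell markers (13), B and plasma cell markers (9) and plasmacytoid DC markers (6) had 0 called. In sorted bulk cells, fewer cells of a type and less RNA per cell cannot be told apart.

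Genes of MHC class II presentation were lower in TIM-4+ LysoMac alongside Plet1 and Bst1, with 5 of 8 called lower and 0 higher (median -1.33): H2-Aa, H2-Eb1, Cd74, H2-Ab1 and the transactivator Ciita (-0.72 ± 0.13, limma adjusted p = 0.00709). Over all genes 0.288% were called lower. With the LysoMac arrays fitted alone, H2-Aa (limma adjusted p = 0.0876), H2-Ab1 (0.0816) and Cd74 (0.185) lost their calls. The TIM-4+ arrays were spread, from 7.79 to 9.37 for H2-Aa and from 8.65 to 10.26 for Cd74. The TIM-4- arrays ran from 10.59 to 10.95 and from 11.09 to 11.59, respectively. MHC class II was part of the LysoMac gate as a low marker in both groups, per the labels. Interferon-stimulated genes had 0 of 9 called.

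**Figure D3:**
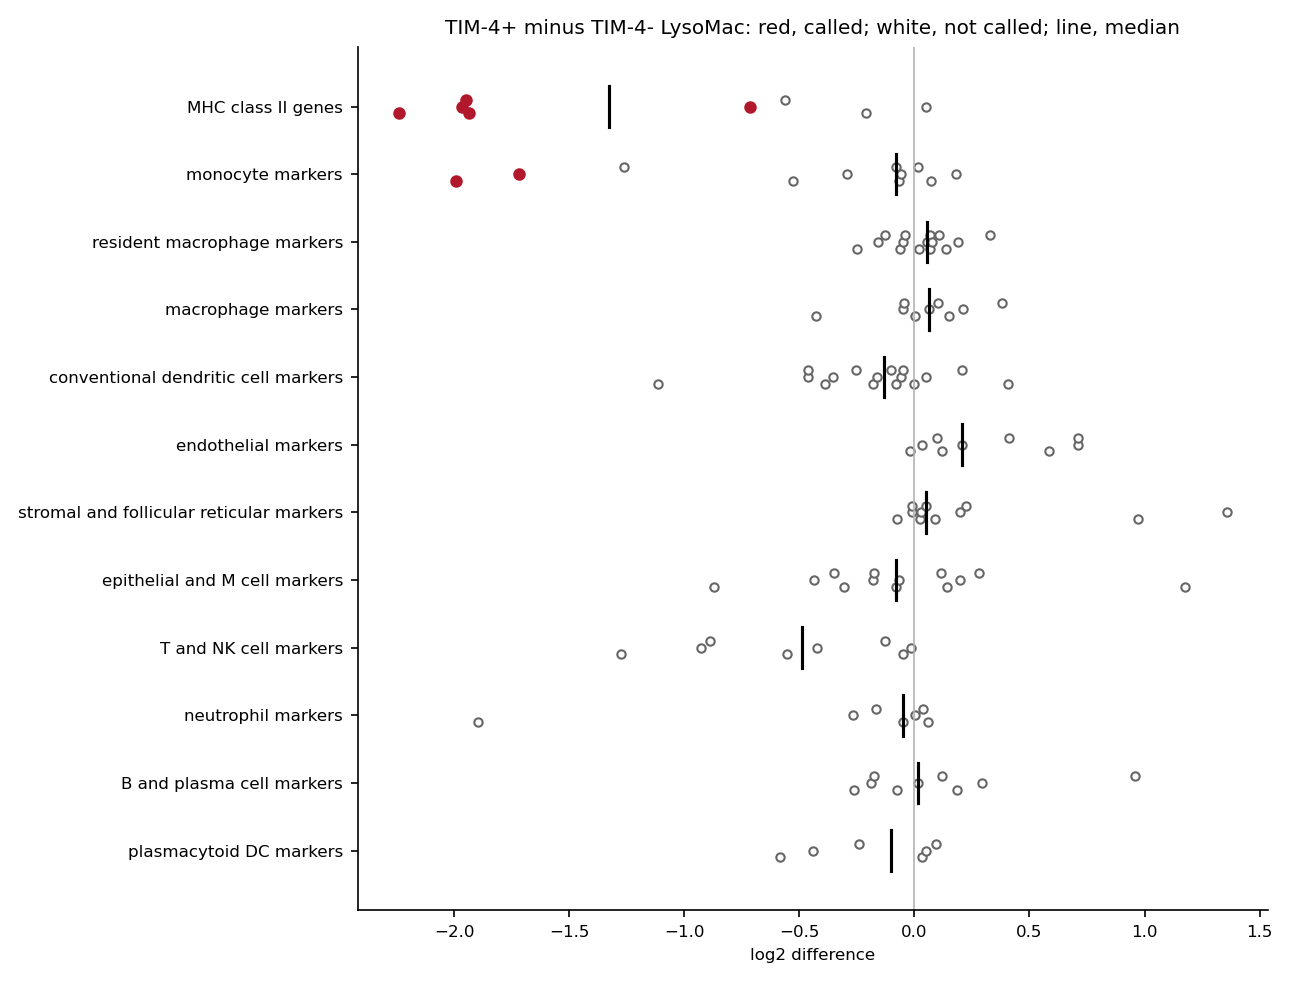
Difference between TIM-4+ and TIM-4- LysoMac (x axis, log2) for the genes of 12 marker lists (y axis), one point a gene, red where called and white where not, with the median of each list as a line. The MHC class II list has its median at -1.33 and the endothelial list at 0.21 with no gene called.

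Against untreated CD11b+ and DN cDC, inside 1 array set, LysoMac taken as the mean of both groups had higher Igf1, Abcc3, Cybrd1, Madcam1 and Bst1 and lower Plet1. All 6 were called by limma, in a comparison that called 5003 of 15962 genes (31.3%). The same 6 LysoMac arrays chose the genes, so these calls are not independent of that choice. For Cybrd1, Madcam1 and Bst1 they rest on the LysoMac group in which the gene was chosen as higher. Igf1 was higher by 4.21 ± 0.09 (SE, n = 6 and 8, limma adjusted p = 1.90e-19), and no array of one side overlapped the other. Plet1 was lower by -4.49 ± 0.22 (limma adjusted p = 1.84e-13 with limma) and Abcc3 was higher by 2.26 ± 0.11 (limma adjusted p = 3.21e-13 with limma), also without overlap. The arrays overlapped for the other 3 genes. Cybrd1 differed by 1.18 ± 0.10 (limma adjusted p = 2.85e-09) and Madcam1 by 1.02 ± 0.11 (limma adjusted p = 1.58e-07), in both through the TIM-4+ arrays. Bst1 differed by 0.57 ± 0.17 (limma adjusted p = 0.0138), through the TIM-4- arrays, and this call was lost when the 14 arrays were fitted alone (limma adjusted p = 0.0584). Without overlap stood 15% of all genes.

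Against untreated CD8α+ cDC, across array sets, LysoMac had higher Igf1 (4.42 ± 0.12), Abcc3 (2.36 ± 0.15), Cybrd1 (1.72 ± 0.13) and Bst1 (1.51 ± 0.22) and lower Plet1 (-2.01 ± 0.28), all called by limma with adjusted p from 3.14e-18 to 7.12e-06. The LysoMac arrays were again those that chose the genes. The arrays did not overlap for 51.4% of all genes. Here 55.2% of 13618 genes were called, 5578 higher and 1943 lower, a split that turned to 2560 and 4647 with all arrays set to the same median and to 3429 and 3209 after cyclic loess. The calls and directions of these 5 genes held under both scalings. The Plet1 arrays overlapped, since TIM-4- LysoMac (8.34 to 8.90) reached the level of CD8α+ cDC (8.97, 8.86 and 9.52) while TIM-4+ LysoMac did not.

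The partners of the 6 genes differed more between LysoMac and CD11b+ and DN cDC than between both LysoMac groups, as did genes at large. Of all genes, 31.3% were called in the first comparison and 0.495% in the second. Of 15 iron genes 5 were higher in LysoMac and 2 lower. Among the higher were Hmox1, which frees iron from haem (3.86 ± 0.21), the ferrous iron carrier Slc11a2 (1.73 ± 0.15), transferrin itself (Trf, 1.29 ± 0.10) and Ncoa4, the receptor for ferritin breakdown (1.23 ± 0.07). Cyb561a3 of the same list went the other way. It had group means of 8.76 in TIM-4- and 8.64 in TIM-4+ LysoMac, against 9.30 in CD11b+ and 9.52 in DN cDC. Of 14 ABC transporters 6 were higher and 0 lower, led by the cholesterol exporters Abca1 (4.31 ± 0.09) and Abcg1 (1.70 ± 0.18), with Abcc5 (1.43 ± 0.08) and Abcg2 (1.35 ± 0.10). Of 7 adhesion genes 2 were higher and 4 lower. Vcam1 was higher (4.85 ± 0.10), while the integrin chains Itgae (-5.28 ± 0.20) and Itgb7 (-2.32 ± 0.11) and the addressin Glycam1 (-0.89 ± 0.20) were lower. Of 14 IGF pathway genes 3 were higher and 3 lower, with the receptors Igf1r and Igf2r (1.79 ± 0.10) on the side of Igf1 and Igfbp7 (-1.85 ± 0.34) and the adaptor Irs2 (-0.74 ± 0.11) on the other. Of 13 NAD genes 3 were higher and 3 lower, with Nampt, which salvages nicotinamide, at 1.34 ± 0.12, Parp14 at 1.28 ± 0.10, Nadsyn1 at 0.76 ± 0.08 and Parp1 at -0.69 ± 0.10. Errors are SE and limma's adjusted p for the genes given with an SE ran from 1.75e-19 for Vcam1 to 0.00179 for Glycam1. Over all genes 14.6% were called higher and 16.7% lower, and the counts of the IGF and NAD lists were near these shares.

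**Figure D4:**
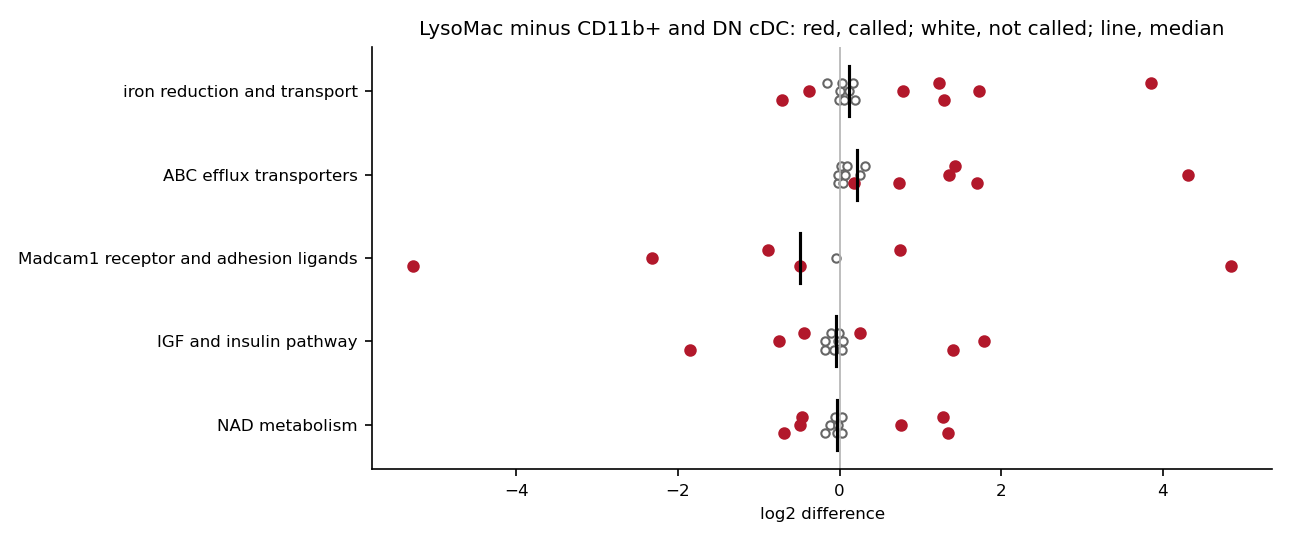
Difference between LysoMac and untreated CD11b+ and DN cDC (x axis, log2) for the genes of the 5 partner lists (y axis), one point a gene, red where called and white where not, with each list's median as a line. Abca1 at 4.31, Vcam1 at 4.85 and Hmox1 at 3.86 lay farthest to the right, and Itgae at -5.28 farthest to the left.

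Among untreated cDC, Plet1 fell stepwise from CD11b+ to DN to CD8α+ cells. It was at 11.90, 12.00, 11.96, 11.96 and 11.76 in CD11b+ cDC, at 11.31, 11.03 and 11.53 in DN cDC and at 8.97, 8.86 and 9.52 in CD8α+ cDC. Neighbouring groups in this order did not overlap. Between DN and CD11b+ cDC the arrays did not overlap for 9.63% of all genes, and between CD8α+ and CD11b+ cDC for 44.3%. DN and CD8α+ cDC were not compared across all genes. The difference between CD8α+ and CD11b+ cDC was -2.80 ± 0.29 (limma adjusted p = 1.14e-07, across array sets). The difference between DN and CD11b+ cDC of -0.63 ± 0.29 was not called (limma adjusted p = 0.277), though it was when the arrays compared were fitted alone (limma adjusted p = 0.0329).

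Bst1 was at 6.82, 6.54, 5.50, 6.80 and 6.72 in untreated CD11b+ cDC, at 5.57, 5.67 and 6.47 in DN cDC and at 5.25, 5.33 and 5.16 in CD8α+ cDC. CD11b+ replicate 3 lay below the other 4 arrays of its group. CD8α+ cDC were lower than CD11b+ cDC by -1.23 ± 0.23 (limma adjusted p = 1.78e-04), and DN cDC differed from CD11b+ cDC by -0.58 ± 0.23, which was not called (limma adjusted p = 0.190). Without CD11b+ replicate 3 the latter was -0.82 and called (limma adjusted p = 0.00311), and without DN replicate 3 it was -0.86 (0.0499).

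Madcam1 was the 1 member of 6 called between DN and CD11b+ cDC, where 674 of 15962 genes (4.22%) were called. DN cDC had 4.43, 4.58 and 4.43 and CD11b+ cDC had 4.00, 4.10, 3.94, 3.76 and 3.58, without overlap, and the difference was 0.61 ± 0.14 (limma adjusted p = 0.0161). It was lost at 0.47 ± 0.15 (limma adjusted p = 0.131) without CD11b+ replicates 4 and 5, which had the lowest levels, and at 0.56 ± 0.17 (limma adjusted p = 0.0950) without DN replicate 2. In the same comparison 8 of 9 endothelial markers were higher in DN cDC (mean level 5.71 to 6.22 against 4.37 to 4.89), as were 6 of 11 stromal markers (5.41 to 5.48 against 4.15 to 4.50), and their part in the Madcam1 difference was not tested. Igfbp7, a secreted IGF binding protein, was also higher in DN cDC (4.95 ± 0.45, limma adjusted p = 2.04e-07), while Igf1 itself differed by 0.14 ± 0.12 (limma adjusted p = 0.599). The split of calls was 408 higher and 266 lower, and 314 and 513 with array medians set equal.

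Igf1 and Abcc3 did not pass the test in DN or CD8α+ against CD11b+ cDC, and Cybrd1 did not in DN against CD11b+ cDC (0.20 ± 0.14, limma adjusted p = 0.483). Igf1 was at 3.94, 3.97, 4.00, 4.12 and 4.44 in CD11b+ cDC, at 4.22, 4.44 and 4.03 in DN cDC and at 4.05, 3.87 and 3.95 in CD8α+ cDC. Abcc3 was at 4.47, 4.51, 4.40, 4.05 and 4.09 in CD11b+ cDC, at 4.59, 4.70 and 4.51 in DN cDC and at 4.26, 4.33 and 4.45 in CD8α+ cDC. Cybrd1 was lower in CD8α+ cDC (3.59, 3.74 and 3.64) than in CD11b+ cDC by -0.44 ± 0.14 (limma adjusted p = 0.0107). That call was lost with array medians set equal (-0.18, limma adjusted p = 0.254) and after cyclic loess (-0.20, limma adjusted p = 0.200). In that comparison 47.7% of 13618 genes were called, 1202 higher and 5296 lower, against 3194 and 2009 after common medians and 2490 and 2526 after cyclic loess.

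Plet1 fell after R848 in both cDC subsets. In CD8α+ cDC Plet1 was at 6.39, 4.79, 6.10, 4.60 and 5.22 after R848, below all 3 untreated arrays, and fell by 3.70 ± 0.29 (SE, n = 5 and 3, limma adjusted p = 1.04e-09), rank 24 among the falls of 16210 genes. Its level after R848 overlapped that of TIM-4+ LysoMac (5.39 to 5.75). In CD11b+ cDC Plet1 was at 10.29, 10.72 and 10.82 after R848, also below all untreated arrays, and fell by 1.30 ± 0.29 (SE, n = 3 and 5, limma adjusted p = 0.00117). The fall was larger in CD8α+ cDC by -2.39 ± 0.41 (limma adjusted p = 1.79e-04 for the difference of both responses). After R848, inside 1 array set, Plet1 was lower in CD8α+ than in CD11b+ cDC by -5.19 ± 0.29 (limma adjusted p = 3.34e-11), the largest negative difference of all 19938 genes.

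Bst1 rose after R848 in CD8α+ cDC. CD8α+ cDC had 6.02, 6.32, 6.03, 6.19 and 5.92, above their untreated arrays, and rose by 0.85 ± 0.23 (limma adjusted p = 0.00371). CD11b+ cDC had 6.04, 6.24 and 6.20, a difference of -0.32 ± 0.23 from untreated that was not called (limma adjusted p = 0.282), but was called without untreated replicate 3 (-0.56, limma adjusted p = 0.00797). The responses differed by 1.16 ± 0.32 (limma adjusted p = 0.00900), which was lost with array medians set equal (0.91, limma adjusted p = 0.0509). After R848 the subsets differed by -0.06 ± 0.23 (95% interval -0.54 to 0.41).

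Cybrd1, low in untreated cDC, rose in both subsets. The median signal over all rows of an array was 4.29 to 4.60. Cybrd1, Igf1, Abcc3 and Madcam1 lay around that level in cDC, so their differences among cDC groups are differences of low signals. Cybrd1 (4.10 to 4.74) and Madcam1 (4.42 to 4.72) lay around it in TIM-4- LysoMac too. In CD11b+ cDC Cybrd1 was at 5.09, 4.66 and 4.79 after R848, a rise of 0.75 ± 0.14 (limma adjusted p = 1.54e-04). In CD8α+ cDC it was at 4.29, 4.60, 4.71, 4.58 and 4.66, a rise of 0.91 ± 0.14 (limma adjusted p = 1.00e-05). All R848 arrays lay above the untreated arrays of their subset and below the TIM-4+ LysoMac arrays. The responses differed by 0.17 ± 0.19 (95% interval -0.23 to 0.56).

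Igf1 rose by 0.43 ± 0.12 in CD11b+ cDC (4.43, 4.59 and 4.55, limma adjusted p = 0.00702) and by 0.39 ± 0.12 in CD8α+ cDC (4.36, 4.20, 4.26, 4.26 and 4.65, limma adjusted p = 0.00883). The latter call was lost with array medians set equal (0.23, limma adjusted p = 0.165) and after cyclic loess (0.31, limma adjusted p = 0.0510). Both groups stayed more than 3 log2 units under the lowest LysoMac array. Abcc3 had 4.71, 4.52 and 4.76 in CD11b+ cDC and 4.70, 4.47, 4.60, 4.49 and 4.63 in CD8α+ cDC after R848. Its differences of 0.36 ± 0.15 (limma adjusted p = 0.0665) and 0.23 ± 0.15 (limma adjusted p = 0.197) were not called, though the first was with array medians set equal (0.44, limma adjusted p = 0.0248) and cyclic loess (0.50, limma adjusted p = 0.0150), and the second when its arrays were fitted alone (limma adjusted p = 0.0324). Madcam1 was at 3.95, 3.84 and 4.12 in CD11b+ cDC after R848, a difference of 0.09 ± 0.14 from untreated (limma adjusted p = 0.630). In CD8α+ cDC after R848 it was at 4.70, 4.64, 4.38, 4.16 and 4.53, higher than in CD11b+ cDC by 0.51 ± 0.14 (limma adjusted p = 0.0214). That call was lost without CD11b+ R848 replicate 1 (limma adjusted p = 0.0650) or 2 (0.122) and without CD8α+ R848 replicate 1 (0.0521).

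These counts stood against wide backgrounds. Arrays did not overlap for 38.2% of genes in the response of CD11b+ cDC, 57.2% in that of CD8α+ cDC and 16.9% between both subsets after R848. In CD11b+ cDC 3 of 6 members were called after R848, where 41% of 15962 genes were, 2813 higher and 3728 lower (3979 and 2861 after common medians). In CD8α+ cDC 4 of 5 measured members were called, where 57% of 16210 genes were, 6796 higher and 2443 lower (3457 and 3406 after common medians, 2960 and 2842 after cyclic loess). Between both subsets after R848, 2 of 6 were called against 12.4% of 19938 genes, and in the difference of the responses 2 of 5 against 33.4% of 13618 genes. There 3712 were higher and 838 lower, with 1297 and 1692 after common medians and 1553 and 1660 after cyclic loess. Markers of other cells moved as well. B and plasma cell markers were higher after R848 for 8 of 9 in CD11b+ cDC (mean level 7.35 to 8.24 against 5.71 to 6.63) and for 7 of 8 in CD8α+ cDC (5.96 to 7.03 against 4.42 to 5.25). T and NK cell markers were higher for 7 of 8 in CD8α+ cDC (5.47 to 6.53 against 3.90 to 4.22), while in CD11b+ cDC 3 of 8 were higher and 5 lower (5.45 to 5.71 against 5.54 to 6.48, median -1.36). Their part in the responses of the 6 genes was not tested.

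**Figure D5:**
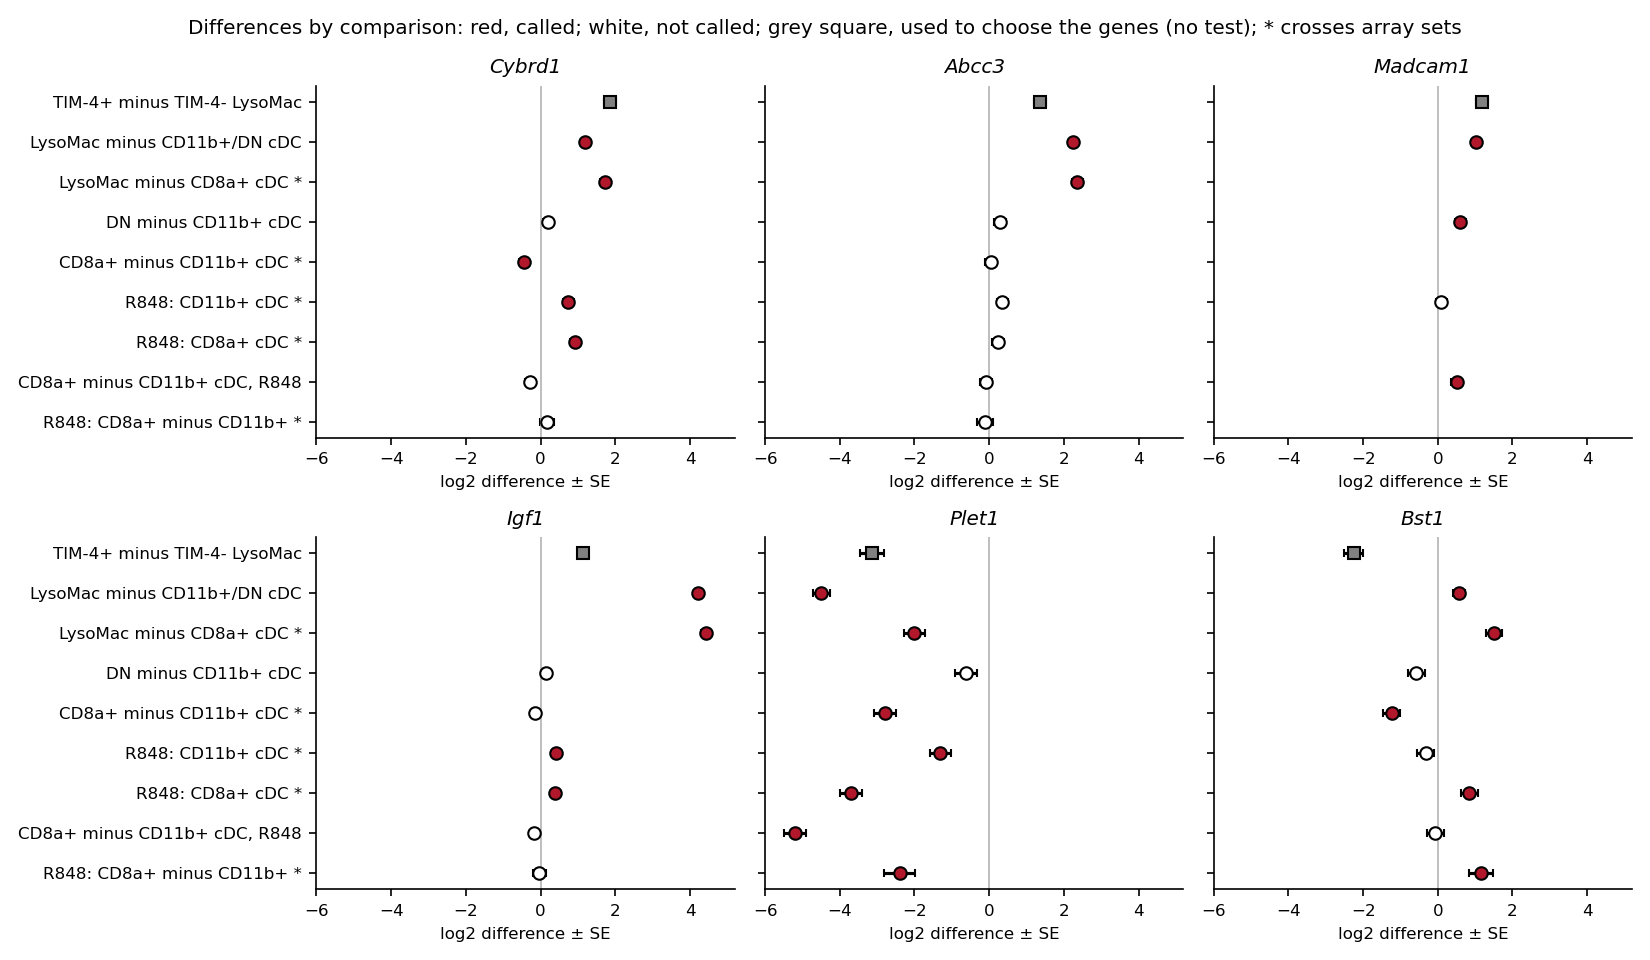
Differences of each gene (x axis, log2, with SE) in the 9 comparisons (y axis), red where called, white where not, and grey squares for the comparison that chose the genes and has no test. Asterisks mark comparisons across array sets. Plet1 was negative in all 9, from -5.19 to -0.63, and Igf1 stood at 4.21 and 4.42 in LysoMac against cDC.

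The counts of the partner lists after R848 stand beside 41% of all genes called in CD11b+ cDC and 57% in CD8α+ cDC. Those of the iron genes and of the IGF and insulin pathway were near these shares. Among iron genes, 2 of 15 were higher and 4 lower in CD11b+ cDC, and 5 of 17 higher and 4 lower in CD8α+ cDC. Trf fell by 2.69 ± 0.13 and 2.26 ± 0.13 and Tfrc by 0.98 ± 0.24 and 1.70 ± 0.24, while Ncoa4 rose by 0.71 ± 0.10 and 1.53 ± 0.10, in CD11b+ and CD8α+ cDC respectively. Among adhesion genes, 3 of 7 and 3 of 5 were higher and 2 were lower in each subset. Itgae fell by 2.49 ± 0.27 and 4.10 ± 0.27 and Vcam1 rose by 2.18 ± 0.13 and 2.50 ± 0.13. Of 14 IGF and insulin pathway genes 2 were higher and 4 lower in CD11b+ cDC. In CD8α+ cDC 6 of 16 were higher and 2 lower. Igf2r rose in CD11b+ cDC (0.92 ± 0.13) and fell in CD8α+ cDC (by 1.80 ± 0.13), and the responses differed by -2.72 ± 0.18 (limma adjusted p = 3.88e-10). Among NAD genes, 6 of 13 and 7 of 11 were higher and 2 and 3 lower, with Parp14 up by 1.57 ± 0.14 and 2.14 ± 0.14 and Sirt1 by 1.12 ± 0.20 and 3.03 ± 0.20. ABC transporters had 3 of 14 higher and 7 lower in CD11b+ cDC and 6 of 13 higher and 2 lower in CD8α+ cDC. Abcg1 rose by 0.98 ± 0.23 and 1.45 ± 0.23. Errors are SE, and limma's adjusted p for these changes was at most 0.00235.

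Over the 14 arrays of untreated CD11b+, DN and LysoMac cells, the genes fell into patterns that the difference between TIM-4+ and TIM-4- cells alone does not show. These Pearson correlations describe 4 groups of arrays and are set largely by the steps between groups. Plet1 ran opposite to Abcc3 (r = -0.98), Igf1 (-0.96), Madcam1 (-0.92) and Cybrd1 (-0.91), but was nearly unrelated to Bst1 (0.12), the other gene of TIM-4- LysoMac. Abcc3 and Igf1 correlated at 0.96, Abcc3 and Madcam1 at 0.93, and Cybrd1 and Madcam1 at 0.92. Among 1857 genes with an SD of at least 0.5, those most like Cybrd1 were P3h2 (0.93), Madcam1 (0.92) and Slc16a9 (0.89). Most like Abcc3 were Bmt2, Rasgrp1 and Dock3 (all 0.97), and most like Madcam1 were Ptprm (0.94), Slc16a9 (0.94) and Abcc3 (0.93). Most like Igf1 were Atp6v0d2, a subunit of the lysosomal proton pump, Cd4, which was part of the LysoMac gate, and Colec12 (all 0.99). Most like Plet1 were Il1r2 (0.99), H2-Eb1 (0.99) and Ifitm6 (0.98). Bst1 had the loosest partners, the lectin Clec4b2 (0.92), Cd8b1 (0.82) and Hp, which encodes haptoglobin (0.80).

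The partners of Plet1 shared its steps between groups in untreated cells. Il1r2 had group means of 10.59 in CD11b+ cDC, 10.21 in DN cDC, 8.32 in TIM-4- LysoMac and 6.33 in TIM-4+ LysoMac, and H2-Eb1 had 12.28, 12.04, 10.21 and 8.24. Untreated CD8α+ cDC set Plet1 apart from Il1r2, with 9.12 ± 0.35 (SD, n = 3) for Plet1 and 4.85 ± 0.53 (SD, n = 3) for Il1r2, while Il1r2 in CD11b+ cDC was 10.59 ± 0.12 (SD, n = 5). The partners of Bst1 were likewise highest in TIM-4- LysoMac, where Clec4b2 had 7.77 against 6.55 in TIM-4+ cells and Cd8b1 had 6.29 against 4.52.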

How the data were processed

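The deposited values are log2 signals, which the authors computed by RMA using Affymetrix Expression Console 1.4.1, per the submitters' processing notes. The sources used here do not say if the 25 arrays were normalized jointly or which genome build the annotation follows. Precision is limited by the number of arrays.

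Row names fitted the R848 columns alone. Both untreated sets were aligned to them by a monotone order match over 28939 rows, and 21978 and 22571 rows were accepted where 3 alignment settings agreed, at least 3 rows from a gap and with neighbouring rows correlated at 0.7 or more. The matching used the means of untreated and R848 cDC, which can favour small responses. Of the probes, 21789 had 1 symbol, 1621 several and 5529 none. Rows with 1 symbol gave 19938 genes.

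All groups entered 1 limma 3.58.1 fit in R 4.3.3, with no covariate, and genes were called at a Benjamini-Hochberg adjusted p under 0.05 over all genes tested. The scripts were tested on simulated data. The series calls its replicates independent, but whether they share a day or pool is not given, so p-values measure only the spread between these samples, which may be technical. Members and lists were chosen with earlier results of these data known. Named were the 6 members and the sort markers, the 10 called genes with the largest differences each way between TIM-4+ and TIM-4- LysoMac, at most 4 called genes a list, and the 3 genes most like each member. Uncalled genes and further list members given as values were chosen after their values were seen. Alternatives were normalization, the filter on low signals, array weights, the replicate block, fitting the compared arrays alone, row acceptance and leaving out arrays. Leaving out CD11b+ replicates 4 and 5 together and a looser row acceptance were added after seeing the data.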

Additional observations from a re-analysis of the deposited data

Results flagged for a closer look

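The response of Plet1 to R848 differed between CD8α+ and CD11b+ cDC by -2.39 on the log2 scale (limma adjusted p = 1.79e-04 for the difference of both responses). The response of Bst1 differed by 1.16 (limma adjusted p = 0.00900). The Bst1 call was lost with array medians set equal (limma adjusted p = 0.0509) and with the replicate block (0.0633). Both differences of responses cross array sets. Bst1 in untreated CD11b+ replicate 3, at 5.50, lay below the other 4 arrays by a gap of 0.794 of the range of the group. Such gaps were looked for in 12 groups of values, and chance marks about 1 in 20.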

How the results depend on the processing

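The differences of the 6 genes between TIM-4+ and TIM-4- LysoMac kept their direction under every alternative run for them. Counts of called genes moved by more than 1.5 times as follows, and the cause was not tested. Fitting the compared arrays alone gave 28 calls in place of 79 for TIM-4+ against TIM-4- LysoMac and 311 in place of 674 for DN against CD11b+ cDC. A minimum mean of 5 on the log2 scale tests fewer genes and gave 3873 of 7521 calls for LysoMac against CD8α+ cDC, 335 for DN against CD11b+ cDC, 3206 of 6498 for CD8α+ against CD11b+ cDC, 3878 of 6541 and 4381 of 9239 for the R848 responses of CD11b+ and CD8α+ cDC, and 2272 of 4550 for the difference of both responses. Equal medians gave 2989 for the last, and cyclic loess gave 5802 for the response of CD8α+ cDC. Deviations of same-numbered arrays from their group means correlated at 0.134, 0.0490 and 0.0355 between both LysoMac groups. They correlated at 0.125, 0.0795 and 0.0199 between CD11b+ and DN cDC and at -0.0243, 0.0803 and 0.0112 between both R848 groups. The labels give no pairing, and correlations over so few arrays cannot decide if same-numbered arrays share a pool or day. With the replicate block there were 419 calls for DN against CD11b+ cDC and 1513 in place of 2478 for both subsets after R848, Madcam1 was not called in either (limma adjusted p = 0.0972 and 0.0732), nor was Tfrc (0.0543) or the Bst1 difference of responses (0.0633), and Abcc3 was called in the CD8α+ response (0.0489). Leaving out 1 array gave 47 to 77 calls for TIM-4+ against TIM-4- LysoMac and 449 to 868 for DN against CD11b+ cDC, with 449 without DN replicate 2. Small uncalled differences changed sign. Without 1 array these were Sirpa (-0.0335 to 0.0888) and Bst2 (-0.0109 to 0.191) between both LysoMac groups, Abcc3 in CD8α+ against CD11b+ cDC (-0.0227 to 0.0914) and Igf1 in the difference of responses (-0.121 to 0.0105). In CD8α+ against CD11b+ cDC, Abcc3 was -0.0438 with the block, -0.0588 with array weights and -0.12 without CD11b+ replicates 4 and 5, and Igf1 was 0.12 with equal medians and 0.13 after loess. Madcam1 in the CD11b+ response was -0.0206 with the block and -0.0436 without those 2 replicates. In the difference of responses, Cybrd1 was -0.0842 with equal medians and -0.10 after loess, and Abcc3 was 0.0443 with the block and 0.0319 without those 2 replicates. Plet1 and Bst1 have no value in untreated arrays under the stricter row acceptance. Cybrd1 and Madcam1 have none under the minimum mean of 5.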
